A study of Mus musculus with 2 samples.

Results

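The genes described here are Ahr, which encodes the aryl hydrocarbon receptor (AHR), its nuclear partner genes Arnt and Arnt2, and 3 genes for chaperones that hold the receptor in the cytoplasm: Ptges3, Hsp90aa1 and Hsp90ab1. They were picked by name, as 6 of the 32285 genes counted, and all 6 were found in both libraries. The libraries were made from the stromovascular fraction (SVF) of perigonadal white adipose tissue (gWAT), the cells that remain once mature adipocytes have been floated off. The mice were male Cyp1a1Cre x R26LSL-eYFP fate reporters, in which Cre under the Cyp1a1 promoter permanently turns on yellow fluorescent protein, so eYFP+ cells are those that had Cyp1a1 active at some time. The diets were purified and lasted 12 weeks, with 10% fat for the low-fat group (LFD) and 60% fat for the high-fat group (HFD). All mice had an injection of FICZ, an AHR ligand, at a dose of 10 mg/kg and 5 days ahead of tissue collection, and live eYFP+ cells were sorted for 10x Genomics 3′ single-cell RNA-seq. There was 1 library per diet, made from pooled mice, with no group without FICZ and no eYFP-negative cells, so the values below are from cells selected for past AHR target activity. With no replicate there is no test between diets, and diet cannot be told apart from differences between pools, sorts and libraries.

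AHR is a ligand-activated transcription factor of the bHLH-PAS family. Without ligand it waits in the cytoplasm in a complex with a dimer of HSP90 and the co-chaperone p23 (the product of Ptges3). Ligands such as FICZ free it to enter the nucleus, where it pairs with ARNT, binds DNA elements with the core GCGTG and switches on genes such as Cyp1a1, Cyp1b1, Tiparp and its own repressor Ahrr. ARNT is a shared partner that also pairs with the hypoxia factors HIF-1α and EPAS1, and ARNT2 is a close relative best known from neurons and kidney. HSP90 has a cytosolic inducible form (Hsp90aa1) and a cytosolic constitutive form (Hsp90ab1), which serve many client proteins besides AHR.

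There were 114311020 UMIs over 11281 barcodes for LFD and 119498750 UMIs over 9631 barcodes for HFD. After filters on UMIs and mitochondrial share and removal of doublets, 9294 LFD and 7879 HFD cells were left, with medians of 10223 and 12722 UMIs. The libraries shared 21 barcodes. Clusters were named from marker lists, and a name ending in -like rests on those markers alone. Of 16 clusters 15 were named and 1, of 54 LFD and 90 HFD cells, was not. The largest is called Wt1+ keratin-low stromal (3604 LFD and 1672 HFD cells): its Krt19 level was 20.2 and 68.1 CPM (counts after scaling each sum of UMIs to 1000000), against 371 and 470 CPM in mesothelial-like cells, while Wt1 was 297 and 332 CPM against 328 and 375 CPM. It carried 9 of 12 adipocyte progenitor and 8 of 10 mesothelial markers, so it met both lists in part. Mesothelial-like cells carried 10 of 12 adipocyte progenitor markers beside 10 of 10 mesothelial ones, and mural-like cells carried 10 of 10 endothelial markers. Adipoq, a defining adipocyte gene, had 5 counts in LFD and 3 in HFD in the Wt1+ keratin-low stromal cells (0.115 and 0.104 CPM). Endothelial-like cells had more, with 43 and 11 counts (11.3 and 4.44 CPM). The T/NK cell-like cluster, with 9 of 10 T cell markers, also carried 8 of 10 ILC2 markers. Levels are given as CPM with exact 95% Poisson intervals, ratios with exact conditional intervals and shares with Clopper-Pearson intervals, and all of these cover counting error only. The counts are of transcript 3′ ends and are not scaled to length, so a level is compared between cell types for the same gene and not between genes.

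Over all cells, Ahr stood at 21.2 CPM (20.3–22.1) on LFD and at 19.1 CPM on HFD. Arnt was at 31.1 CPM (30.0–32.3) and 32.2 CPM (31.1–33.4). Arnt2 was close to absent, with 21 and 29 UMIs in all cells together. The chaperone transcripts were at 169 CPM in each library for Ptges3, at 759 and 666 CPM for Hsp90aa1 and at 1965 and 1857 CPM for Hsp90ab1. Receptor and partner were thus counted sparsely, and the chaperones in most cells.

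In GENCODE M21 (GRCm38) the genes are protein coding and lie on 5 chromosomes. Ahr (ENSMUSG00000019256) is at chr12:35497974-35535038 on the minus strand and Arnt (ENSMUSG00000015522) at chr3:95434388-95497240 on the plus strand. Arnt2 (ENSMUSG00000015709) is at chr7:84246278-84410176 on the minus strand. Ptges3 (ENSMUSG00000071072) is at chr10:128058954-128077272 on the plus strand, Hsp90aa1 (ENSMUSG00000021270) at chr12:110690605-110702728 and Hsp90ab1 (ENSMUSG00000023944) at chr17:45567775-45573271, the last pair on the minus strand. These positions are lookups in that release.

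Promoter sequences from RefSeq (GRCm38.p6) were at hand for 3 of the 6 genes, and are shown because the core of the AHR-ARNT element can be read in them. Each run is the bases just before the GENCODE gene start, 5′ to 3′ on the gene's strand, at chr3:95434140-95434387 (plus) for Arnt, chr7:84410177-84410288 (minus) for Arnt2 and chr10:128058732-128058953 (plus) for Ptges3. Capitals mark GCGTG on either strand.
Arnt: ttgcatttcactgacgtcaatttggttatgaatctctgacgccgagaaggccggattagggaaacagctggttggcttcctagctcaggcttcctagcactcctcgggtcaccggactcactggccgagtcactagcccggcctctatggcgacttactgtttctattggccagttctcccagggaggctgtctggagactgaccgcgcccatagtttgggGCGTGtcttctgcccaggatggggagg
Arnt2: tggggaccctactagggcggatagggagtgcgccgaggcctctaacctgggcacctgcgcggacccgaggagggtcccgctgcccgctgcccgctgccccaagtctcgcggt
Ptges3: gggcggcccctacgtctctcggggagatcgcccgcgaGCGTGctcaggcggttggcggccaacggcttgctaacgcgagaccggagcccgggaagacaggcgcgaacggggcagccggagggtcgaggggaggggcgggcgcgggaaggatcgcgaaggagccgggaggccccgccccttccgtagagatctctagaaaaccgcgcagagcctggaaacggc
In the 250 bases before the RefSeq start, GCGTG was found once for Arnt, 29 bases before it, not for Arnt2, and at 213 and 21 bases before it for Ptges3, the second of these beyond the end of the run shown. Of 32851 RefSeq promoters, 28.2% held GCGTG on either strand. The heat shock element core GAANNTTC was in 6.69% of them and in none of the 3. A match is a description of the letters and not a bound site.

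Ahr was highest in dendritic cell-like cells, which carried Xcr1, Clec9a and Flt3 among their leading genes. The LFD level there was 97.5 CPM (76.9–122) and the HFD level 137 CPM (110–169). No other type with at least 20 Ahr UMIs in a library came within these intervals. The HFD library held only 80 of these cells against 109 in LFD, so their diets were not compared. In cells thinned to 2000 UMIs each, 18.1% of LFD and 24.7% of HFD dendritic cell-like cells had an Ahr UMI.

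The order of Ahr was taken over the 11 types with at least 100 cells in each library. T/NK cell-like cells came first with 35.3 CPM (19.3–59.2) in LFD and 39.6 CPM (22.6–64.2) in HFD, from 14 and 16 UMIs. B cell-like cells followed with 25.6 and 31.9 CPM, and mesothelial-like cells had 25.1 and 24.95 CPM. Endothelial-like cells, where Cyp1a1 itself was highest, came in place 4 of 11 in LFD and 3 of 11 in HFD for its receptor, with 21.5 and 29.4 CPM. The Wt1+ keratin-low stromal cells had 20.3 CPM (19.0–21.7) and 19.7 CPM (18.1–21.4), and macrophage-like cells 15.1 and 15.3 CPM. ILC2-like cells, the group 2 innate lymphoid cells, had 19.3 and 18.8 CPM from 12 and 8 UMIs. The low end was held by fibroblastic progenitor-like cells (11.8 and 6.79 CPM), cycling plasma cell-like cells (6.62 and 6.72 CPM) and plasma cell-like cells (3.36 and 6.28 CPM). With immunoglobulin genes left out of the totals, plasma cell-like cells had 5.13 and 10.9 CPM, cycling plasma cell-like cells 8.69 and 9.46 CPM and fibroblastic progenitor-like cells 11.9 and 6.81 CPM, so the lowest type in HFD was then the fibroblastic one. Intervals of neighbours in this order overlapped for 10 of 10 neighbouring pairs in LFD and 9 of 10 in HFD. The pair apart was macrophage-like and fibroblastic progenitor-like cells in HFD.

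Free RNA from other cells can give UMIs of genes that a cell does not express. Its level was estimated from collagen and matrix genes in immune and endothelial types and from Jchain, Igkc and Ighm in stromal types. For Ahr in plasma cell-like cells it came to 0.403 and 0.291 CPM, below the 3.36 (1.35–6.93) and 6.28 (4.78–8.10) CPM measured. In fibroblastic progenitor-like cells it was 4.11 CPM in LFD, where 19.4% of the RNA was estimated as free, against 0.621 CPM in HFD with 3.25%.

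**Figure D1:**
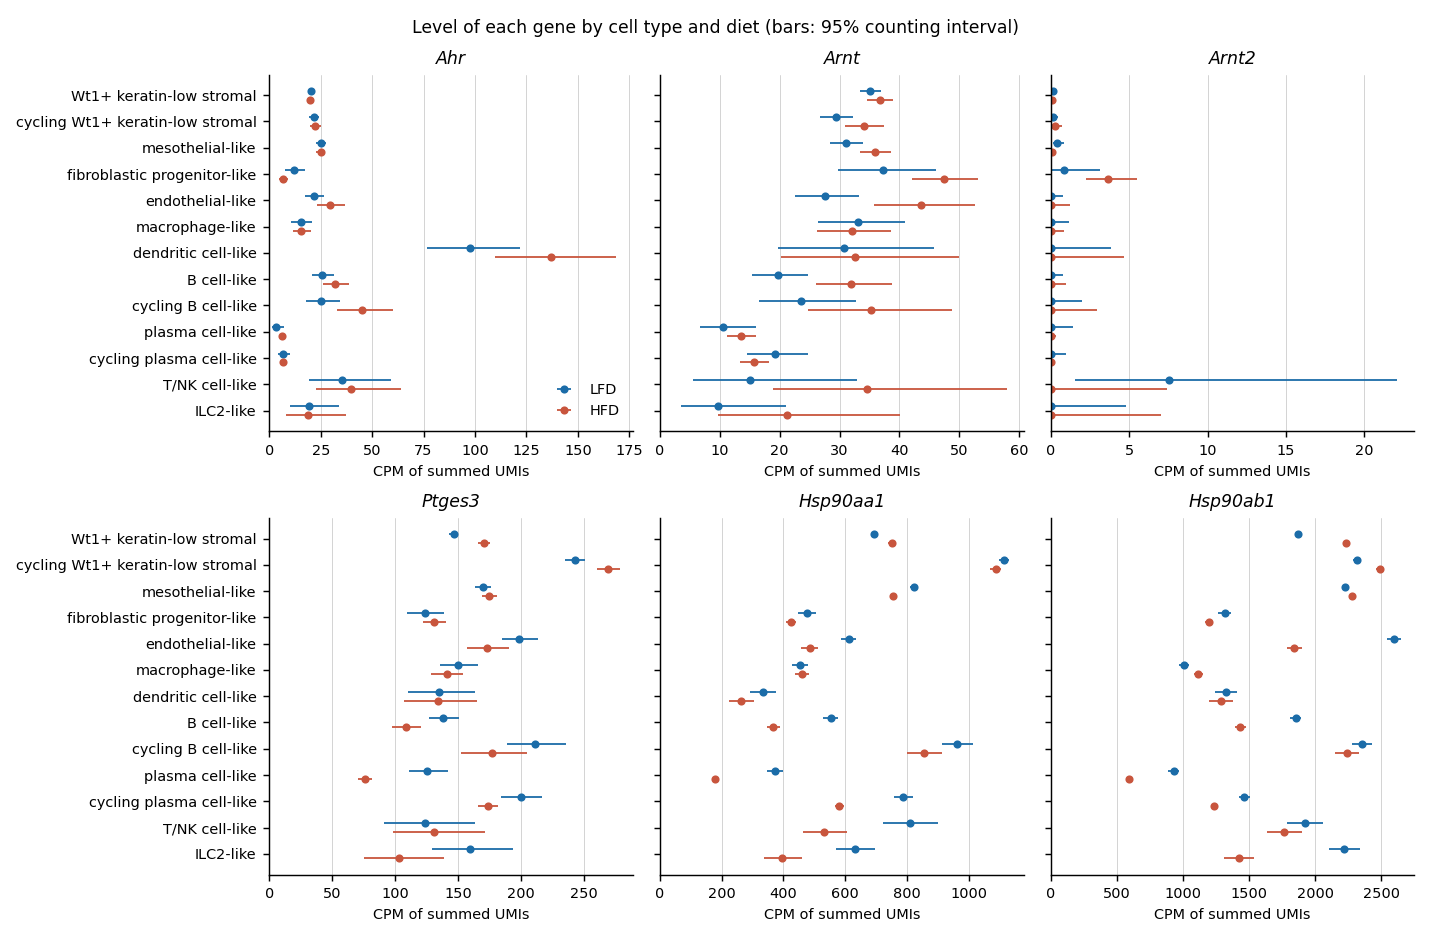
Level of each gene, in CPM of summed UMIs on a linear axis, by cell type in the LFD (blue) and HFD (red) library. Points are the levels and bars the exact 95% Poisson intervals, or a fixed bound of 3 counts where no UMI was found. Ahr stands highest in dendritic cell-like cells (97.5 and 137 CPM) and is low in plasma cell-like cells (3.36 and 6.28 CPM), and for Hsp90aa1 the cycling Wt1+ keratin-low stromal cells stand highest (1114 and 1088 CPM).

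Arnt, the nuclear partner, was spread more evenly. Of the 11 types, fibroblastic progenitor-like cells had the most, 37.2 CPM (29.7–46.0) in LFD and 47.4 CPM (42.1–53.2) in HFD. The Wt1+ keratin-low stromal cells had 35.1 and 36.7 CPM, mesothelial-like cells 31.1 and 36.0 CPM and macrophage-like cells 33.1 and 32.0 CPM. Plasma cell-like cells were low here too, with 10.6 and 13.5 CPM, or 16.1 and 23.4 CPM without immunoglobulin genes, which is above ILC2-like cells on both diets. ILC2-like cells had 9.66 and 21.2 CPM from only 6 and 9 UMIs. All 10 neighbouring pairs in the order overlapped on each diet. With the estimated free RNA subtracted, Arnt in LFD was 31.2 CPM in fibroblastic progenitor-like cells, 34.3 CPM in Wt1+ keratin-low stromal and 31.4 CPM in macrophage-like cells. The first place in LFD thus depends on that estimate. In HFD fibroblastic progenitor-like cells stayed first, at 46.3 CPM. Outside the 11 types, mural-like cells had 40.0 and 55.0 CPM of Arnt, from 3 and 27 UMIs, and neutrophil-like cells 31.1 and 68.7 CPM, from 8 and 6 UMIs.

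Most Arnt2 UMIs came from the stromal types. Of 21 LFD UMIs, 7 were in Wt1+ keratin-low stromal cells, 7 in mesothelial-like cells, 2 in cycling Wt1+ keratin-low stromal cells, 2 in fibroblastic progenitor-like cells and 3 in T/NK cell-like cells, where the level was 7.56 CPM (1.56–22.1). Of 29 HFD UMIs, 22 were in the 579 fibroblastic progenitor-like cells, a level of 3.65 CPM. No UMI was found in endothelial-like, macrophage-like or B cell-like cells. With a fixed bound of 3 counts, which is lower than the exact Poisson limit, the endothelial-like level is at most 0.787 CPM in LFD and 1.21 CPM in HFD.

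Of the 11 types, the cycling Wt1+ keratin-low stromal cells were high for all 3 chaperones. Ptges3 stood there at 243 CPM (235–251) and 269 CPM (260–279), and Hsp90aa1 at 1114 and 1088 CPM. Hsp90ab1 was at 2314 and 2489 CPM, and in LFD endothelial-like cells exceeded this with 2597 CPM. Plasma cell-like cells were the lowest of the 11 types for both HSP90 genes, with 371 and 178 CPM of Hsp90aa1 and 931 and 591 CPM of Hsp90ab1. For Ptges3 they were lowest in HFD with 75.8 CPM, whereas in LFD T/NK cell-like cells were lowest with 123 CPM and an interval that overlapped those of plasma cell-like cells. Macrophage-like cells had the next lowest Hsp90ab1, 1007 and 1118 CPM. Immunoglobulin genes took 34.4% of the UMIs of plasma cell-like cells in LFD and 42.1% in HFD. With them left out of the totals, plasma cell-like cells had 566 and 307 CPM of Hsp90aa1 and 1421 and 1021 CPM of Hsp90ab1, the lowest in HFD alone, while macrophage-like cells were lowest in LFD with 454 and 1007 CPM. In LFD the most Ptges3 was then in cycling plasma cell-like cells, 263 CPM against 243 CPM in cycling Wt1+ keratin-low stromal cells. Ptges3 was 131 CPM in HFD plasma cell-like cells, above the 104 CPM of ILC2-like and the 111 CPM of B cell-like cells.

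From the lowest to the highest of the 11 types, Ahr spanned 10.5-fold (3.96–30.7) in LFD and 6.30-fold (3.38–11.1) in HFD. Arnt spanned 3.86-fold and 3.51-fold and Ptges3 1.97-fold and 3.56-fold. Hsp90aa1 went from 3.00-fold in LFD to 6.12-fold in HFD, and Hsp90ab1 from 2.79-fold to 4.21-fold. These spans depend on the processing. With each cell assigned by its own markers, over 6 types, Hsp90aa1 spanned 2.06-fold in LFD and 2.11-fold in HFD. Ahr then spanned 4.65-fold and 5.02-fold, and Ptges3 1.36-fold and 1.72-fold. Without doublet removal Ahr spanned 4.47-fold in LFD and Hsp90aa1 3.53-fold in HFD. Without immunoglobulin genes Ahr spanned 6.88-fold and 5.85-fold. The spans were then 2.45-fold and 3.55-fold for Hsp90aa1 and 2.58-fold and 2.44-fold for Hsp90ab1, so Hsp90ab1 then had no wider span in HFD, and Arnt spanned 2.24-fold in HFD. Among all genes with at least 10 CPM, 62.3% in LFD and 68.8% in HFD spanned at least 4-fold, against 1 of 5 members in LFD and 3 of 5 in HFD, and the median gene spanned 5.46-fold and 6.26-fold.

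For the comparison of diets, a gene was counted as past the threshold when its HFD to LFD ratio was above 1.5-fold in either direction with a counting interval that left out 1, given at least 20 UMIs over both libraries. Of 55 member and type pairs, 12 (21.8%) were past it, and over all genes 14849 of 111540 pairs (13.3%) were. The highest member count was 3, in plasma cell-like and in ILC2-like cells. The 8 chaperone ratios past the threshold were all below 1 and all in lymphoid types with libraries scaled by totals, and both Arnt ratios past it were above 1. The share of all genes past the threshold was 13.7% in Wt1+ keratin-low stromal cells, 11.5% in their cycling cluster, 11.2% in mesothelial-like cells, 10.3% in macrophage-like cells and 7.01% in cycling plasma cell-like cells, and in these 5 types no member was past it.

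**Figure D2:**
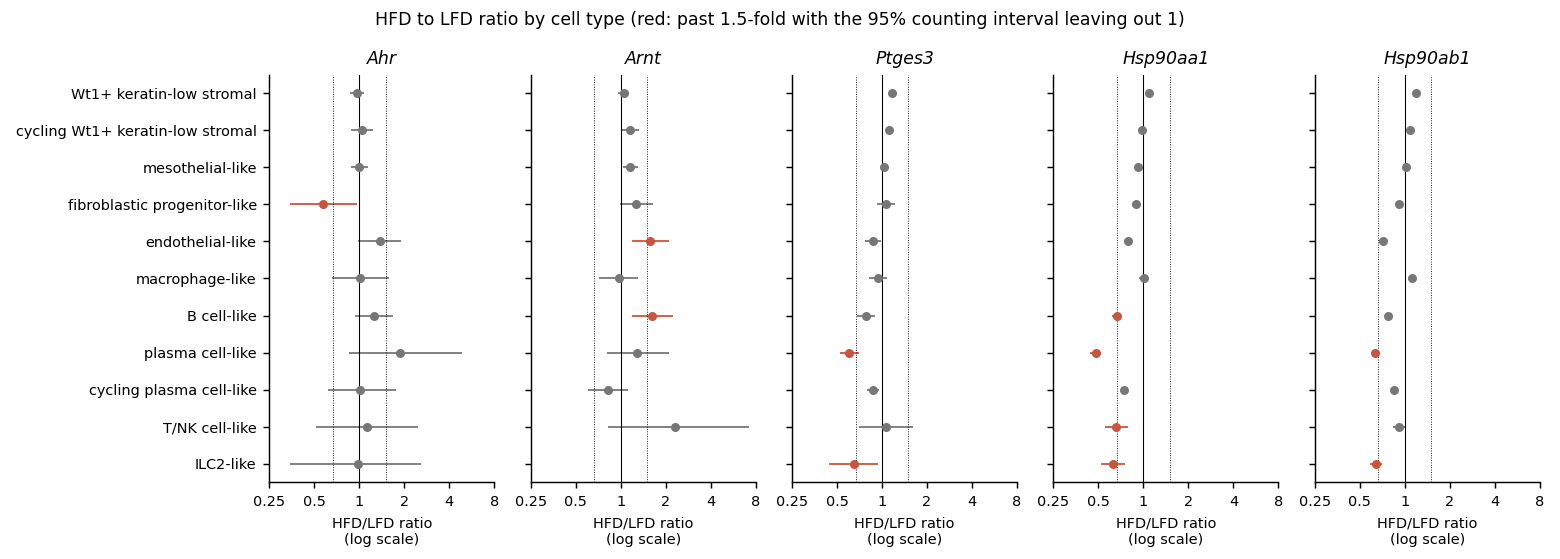
HFD to LFD ratio of CPM (log axis) by cell type, for the 5 genes with enough UMIs, with exact 95% counting intervals. Red points are past 1.5-fold with an interval leaving out 1, dotted lines mark 1.5-fold. Hsp90aa1 lies below 1 in 9 of 11 types, lowest in plasma cell-like cells at 0.479.

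Between diets Ahr was past the threshold in 1 of the 11 types. In the 3 largest stromal clusters its ratio was 0.970 (Wt1+ keratin-low stromal), 1.04 (cycling) and 0.996 (mesothelial-like), and in macrophage-like cells 1.01. Fibroblastic progenitor-like cells were the 1 type past the threshold, with 27 UMIs in LFD and 41 in HFD and a ratio of 0.574 (0.345–0.971). In this type 16.5% of all genes were past it. With the estimated free RNA subtracted the levels were 7.72 and 6.17 CPM, closer together than without it. In endothelial-like cells the ratio was 1.37 (0.985–1.90) and in plasma cell-like cells 1.87 (0.851–4.84), and both intervals include 1. Over the alternative settings the endothelial-like ratio ran from 1.11 to 1.91, the upper value above 1.5-fold. The plasma cell-like ratio was 0.713 without doublet removal and 3.03 in cells with none of the listed cycling genes. Of the 11 types, 10 had an interval that covered 1.

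Arnt was higher in HFD in endothelial-like cells, from 27.5 CPM (22.5–33.3) on LFD to 43.6 CPM (35.7–52.6) on HFD, a ratio of 1.58 (1.20–2.09) that was 1.43 with libraries scaled by the median ratio of all genes. In these cells 21.7% of all genes were past the threshold. B cell-like cells had 19.6 CPM (15.4–24.7) and 31.9 CPM (26.0–38.8), a ratio of 1.62 (1.19–2.23), where 13.2% of genes were past it. The intervals of the paired levels did not overlap in either type. Arnt was also higher in HFD, by less than 1.5-fold, in cycling Wt1+ keratin-low stromal cells (1.16) and mesothelial-like cells (1.16), and no type had an interval below 1. In T/NK cell-like cells the ratio was 2.29 from 6 and 14 UMIs, with an interval that included 1. The endothelial ratio was 1.24 (0.856–1.78) among cells with none of 12 listed cycling genes, whereas the B cell-like ratio was 1.58 (1.11–2.26) among such cells.

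Arnt2 could be compared in fibroblastic progenitor-like cells alone. With 2 UMIs in 215 LFD cells and 22 in 579 HFD cells, its ratio was 4.16 (1.02–36.5), and the interval spans a wide range of sizes. With each cell weighted equally the ratio was 2.06, and in cells with none of the cycling genes it was 6.91 (1.11–287), from 1 and 20 UMIs.

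The largest differences of the chaperones were in plasma cell-like cells, the antibody-secreting cells marked by Jchain and Tnfrsf17. Hsp90aa1 had 371 CPM (345–398) on LFD against 178 CPM (169–187) on HFD, a ratio of 0.479 (0.440–0.523). Ptges3 was at 125 and 75.8 CPM, a ratio of 0.604 (0.523–0.699). Hsp90ab1 was at 931 and 591 CPM, a ratio of 0.634 (0.602–0.668). All 3 chaperones were therefore lower in HFD by at least 1.5-fold, while 13.7% of all genes in these cells were past that threshold. The immunoglobulin share given above lowers the CPM of every other gene. Counted without immunoglobulin genes, the ratios were 0.543 for Hsp90aa1, 0.684 for Ptges3 and 0.718 for Hsp90ab1, so that only Hsp90aa1 stayed past 1.5-fold. The direction was the same in the cycling plasma cell-like cells, at 0.736 (Hsp90aa1), 0.869 (Ptges3) and 0.841 (Hsp90ab1), none of which passed 1.5-fold.

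B cell-like cells had lower Hsp90aa1 in HFD, 553 CPM (530–578) against 367 CPM (346–389), a ratio of 0.663 (0.617–0.713). Hsp90ab1 was at 1853 and 1435 CPM, a ratio of 0.775, and Ptges3 at 138 and 109 CPM, a ratio of 0.786. The share of these cells with at least 4 of the 12 listed cycling genes, after thinning, was 0.889% in LFD and 1.00% in HFD. Among cells with none of them the Hsp90aa1 ratio was 0.665 (0.611–0.723). With each cell weighted equally it was 0.707, short of 1.5-fold in the same direction.

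ILC2-like cells, which led with Il5 and Il13, had all 3 chaperones past the threshold, with 17.7% of all genes past it. Hsp90aa1 was at 631 and 395 CPM (ratio 0.626, 0.519–0.752), Hsp90ab1 at 2219 and 1422 CPM (0.641, 0.581–0.705) and Ptges3 at 159 and 103 CPM (0.649, 0.444–0.935). In T/NK cell-like cells Hsp90aa1 was at 809 and 532 CPM, a ratio of 0.657 (0.550–0.784), where 10.8% of genes were past the threshold, and Hsp90ab1 at 1922 and 1765 CPM was not. Cells with at least 4 cycling genes were 18 in LFD (16.5%, 10.1–24.8%) and 7 in HFD (7.37%, 3.01–14.6%) of the thinned ILC2-like cells. They were 18 (23.7%, 14.7–34.8%) and 11 (13.9%, 7.16–23.5%) of the T/NK cell-like cells, and the intervals overlapped in both types. Among cells with none, the Hsp90aa1 ratio was 0.840 (0.657–1.07) from 66 and 78 ILC2-like cells and 0.974 (0.689–1.38) from 40 and 53 T/NK cell-like cells. In such ILC2-like cells Hsp90ab1 had a ratio of 0.716 (0.631–0.813) and Ptges3 of 0.588 (0.343–0.990), the latter past 1.5-fold. In T/NK cell-like cells Ptges3 had a ratio of 1.06 over all cells and of 2.58 (1.02–7.74) in such cells, from 6 and 23 UMIs. With each ILC2-like cell weighted equally, the ratios were 0.704 (Hsp90aa1), 0.706 (Hsp90ab1) and 0.668 (Ptges3), just short of 1.5-fold. When each T/NK cell-like cell was given equal weight, the Hsp90aa1 ratio was 0.924, and without the top 1% of cells it was 0.682, both short of 1.5-fold.

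Endothelial-like cells had lower Hsp90ab1 in HFD, 2597 CPM (2546–2648) against 1844 CPM (1791–1898), a ratio of 0.710 (0.685–0.735) that fell short of 1.5-fold and was 0.644, past it, with median-ratio scaling. Hsp90aa1 was at 611 and 485 CPM (0.794) and Ptges3 at 199 and 173 CPM (0.872). Cells with at least 4 cycling genes were 13.3% of these cells in LFD and 3.92% in HFD. Among cells with none of those genes Hsp90aa1 had a ratio of 0.983 (0.893–1.08) and Ptges3 of 1.05 (0.895–1.23), while Hsp90ab1 had a ratio of 0.737 (0.704–0.771).

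The stromal types had chaperone ratios closer to 1. In Wt1+ keratin-low stromal cells Ptges3 was at 147 and 170 CPM (ratio 1.16), Hsp90aa1 at 692 and 750 CPM (1.08) and Hsp90ab1 at 1870 and 2234 CPM (1.19), all with intervals above 1 and under 1.5-fold. Mesothelial markers in this cluster were higher in HFD, Krt19 at 20.2 and 68.1 CPM and Upk3b at 10.2 and 61.9 CPM, while Pdgfra, a progenitor gene, was at 490 and 306 CPM, and their part in these ratios was not tested. Under a stricter cell filter the Hsp90aa1 ratio was 0.913 in these cells, so its direction depends on which cells are kept. In mesothelial-like cells Hsp90aa1 was at 822.5 and 756 CPM (0.919) and Hsp90ab1 at 2229 and 2279 CPM (1.02). Over the 11 types, the interval lay below 1 in 9 for Hsp90aa1, 6 for Hsp90ab1 and 5 for Ptges3, and above 1 in 1, 4 and 2. The share of all genes with such intervals was not counted. At the UMI counts of these genes a ratio near 1 can leave out 1, as 1.02 did for Hsp90ab1 in mesothelial-like cells. In fibroblastic progenitor-like cells, with the estimated free RNA subtracted, the ratio went from 0.894 to 1.23 for Hsp90aa1, from 0.909 to 1.22 for Hsp90ab1 and from 1.06 to 1.39 for Ptges3. The HSP90 directions there thus depend on that estimate. With libraries scaled by the median ratio of all genes in place of totals, Hsp90aa1 was below 1 in 10 of 11 types, Hsp90ab1 in 9 and Ptges3 in 8, against 9, 7 and 6 by totals. The median log2 ratio of all genes lay between -0.15 in plasma cell-like and 0.14 in endothelial-like cells.

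The cycling clusters allowed each chaperone to be compared within a library, against the cluster that shares most of its name. The cycling Wt1+ keratin-low stromal cluster met 10 of 10 mesothelial markers and had more Krt19 (118 and 203 CPM) and Upk3b (40.0 and 121 CPM) than its partner, so that pair differs in more than cycling. The pairs are the same clusters taken in both libraries, and the share of all genes higher in the cycling cluster was not counted. Whether the differences are particular to the chaperones was therefore not tested. Ptges3 was higher in the cycling cluster in 6 of 6 pairs, by 1.53 to 2.29 times. Hsp90aa1 was higher in 6 of 6, by 1.45 to 3.27 times, and Hsp90ab1 in 6 of 6, by 1.11 to 2.09 times. Ahr had an interval covering 1 in all 6, and Arnt was above 1 in 1 and below 1 in 1. With immunoglobulin genes left out the ranges were 1.37 to 1.87 for Ptges3, 1.45 to 2.66 for Hsp90aa1 and 1.11 to 1.70 for Hsp90ab1. The member genes and listed genes took no part in the clustering, but other genes that move with the cell cycle did, so these ratios describe the clusters. In LFD endothelial-like cells, which formed a single cluster, the 63 cells with at least 4 cycling genes had 2.15 times the Hsp90aa1 (1.95–2.37), 1.85 times the Ptges3 (1.55–2.19) and 1.22 times the Hsp90ab1 (1.16–1.29) of the 314 cells with none. Their Ahr ratio was 0.662 (0.321–1.26).

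**Figure D3:**
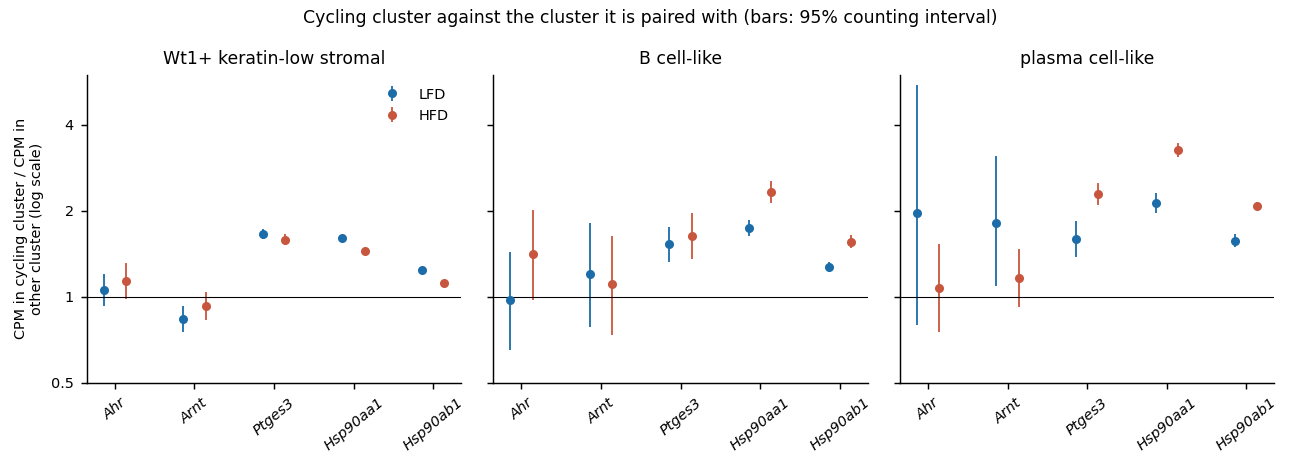
CPM in the cycling cluster over CPM in the cluster it is paired with (log axis), in LFD (blue) and HFD (red), with exact 95% counting intervals. Ptges3, Hsp90aa1 and Hsp90ab1 lie above 1 in all 6 pairs (highest Hsp90aa1 3.27, plasma cell-like, HFD), and Ahr covers 1 in all 6.

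The balance of the HSP90 forms also differed by type. The inducible Hsp90aa1 made up 35.0% of the UMIs of both genes in LFD and 32.0% in HFD cycling plasma cell-like cells, and 32.5% and 30.4% in cycling Wt1+ keratin-low stromal cells. Low shares were found in dendritic cell-like (20.1% and 16.95%), endothelial-like (19.0% and 20.8%), ILC2-like (22.1% and 21.7%) and B cell-like cells (23.0% and 20.4%). Of the 11 types, 10 had a lower share in HFD, 7 of them with intervals that did not overlap, as in plasma cell-like cells (28.5% and 23.1%). In T/NK cell-like cells the share was 29.6% and 23.1%, but 24.2% and 24.3% with each cell weighted equally, and 18.7% and 19.6% among cells with none of the cycling genes. Among such cells ILC2-like cells also had the higher share in HFD (20.2% and 22.9%), and 7 of 10 types had the lower one. With each cell weighted equally it was lower in 9 of 11 types, and under the stricter cell filter in 4 of 5. Endothelial-like cells had the higher share in HFD, also without overlap, as did neutrophil-like cells outside the 11 types (38.2% and 60.6%, from 177 and 74 cells). A share within a library does not depend on how the libraries were scaled.

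**Figure D4:**
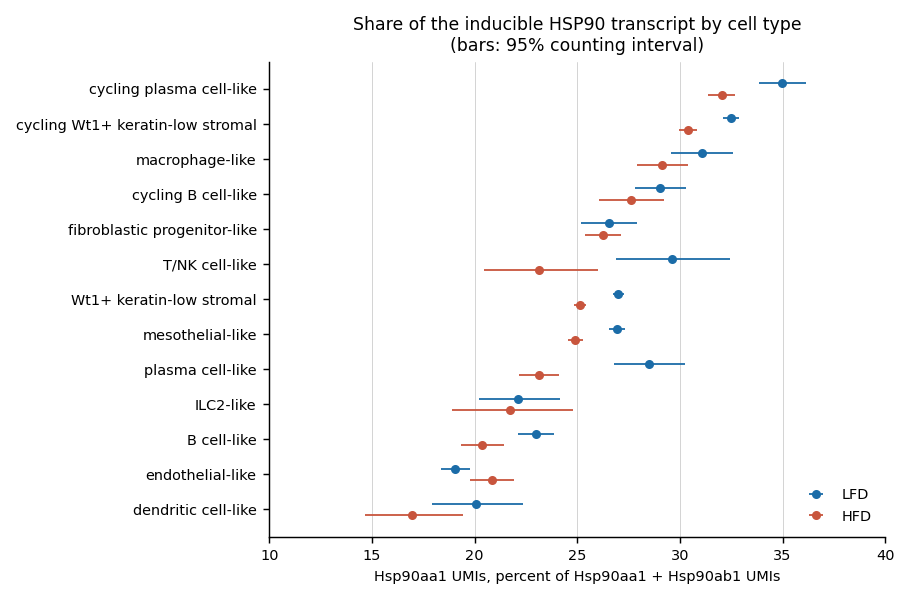
Hsp90aa1 UMIs as a percent of Hsp90aa1 plus Hsp90ab1 UMIs, by cell type in LFD (blue) and HFD (red), with 95% counting intervals. The axis starts at 10%. The HFD point lies left of the LFD point in all types shown but endothelial-like cells (19.0% and 20.8%).

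Other genes of the pathway were taken from fixed lists. Of the 13 co-chaperones and related genes, which include Stip1 (HOP), Cdc37 and the endoplasmic reticulum form Hsp90b1, 2 of 143 gene and type pairs were past the threshold upward in HFD and 10 downward (8.39% together, against 13.3% over all genes). In plasma cell-like cells Cdc37 (0.643), Ppid (0.524), Ppp5c (0.593) and Stub1 (0.588) were lower. Without immunoglobulin genes the ratios were 0.728 for Cdc37 and 0.672 for Ppp5c, short of 1.5-fold, 0.594 for Ppid, and 0.666 for Stub1, at the threshold. ILC2-like cells had lower Ahsa1 (0.608), Ppid (0.444) and Hsp90b1 (0.666), and endothelial-like cells lower Ppid (0.570) and Stip1 (0.597). Ppid encodes a cyclophilin that binds HSP90. In B cell-like cells Fkbp4, another HSP90 immunophilin, had a ratio of 0.660.

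Hsp90b1, the form that folds secreted proteins, was highest in the plasma clusters, with 5346 and 4424 CPM in the plasma cell-like cluster and 4556 and 5352 CPM in its cycling counterpart. It was 1 of the 2 upward genes, with a ratio of 3.55 (2.98–4.23) in T/NK cell-like cells, the other being Cdc37 (1.57). In the same cells Jchain, a plasma cell gene, was at 37.8 and 581 CPM, a ratio of 15.4, and whether plasma cell RNA took part in the Hsp90b1 difference was not tested.

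Heat shock inducible genes went both ways, with 15 pairs up and 10 down of 123 (20.3%, against 13.3% over all genes). Endothelial-like cells, where 21.7% of all genes were past the threshold, held 6 of these pairs, in both directions. Hspa1b was higher in HFD in Wt1+ keratin-low stromal cells (7.87 and 31.9 CPM, ratio 4.05), mesothelial-like cells (3.64), endothelial-like cells (5.17) and fibroblastic progenitor-like cells (2.36). Hspa1a and Hspa1b are near-identical copies between which reads can be split, so their separate levels are uncertain. Summed, they had a ratio of 1.72 in Wt1+ keratin-low stromal (61.0 and 105 CPM), 1.60 in mesothelial-like, 2.46 in endothelial-like and 1.55 in fibroblastic progenitor-like cells. Hspd1 and Hspe1, which fold proteins in mitochondria, were lower in endothelial-like (0.602 and 0.543) and plasma cell-like cells (0.604 and 0.589). Plasma cell-like cells also had lower Hspa8 (0.599), the constitutive HSP70, and Dnajb1 (0.651). Without immunoglobulin genes these 4 plasma cell-like ratios were 0.684 (Hspd1), 0.667 (Hspe1), 0.678 (Hspa8) and 0.737 (Dnajb1), all short of 1.5-fold. In endothelial-like cells Dnajb1 (1.52) and Bag3 (1.64) were higher, so there these HSP70 helpers and Hsp90ab1 lay on opposite sides of 1.

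Among the 16 other bHLH-PAS genes and their coactivators, 16 pairs were up and 10 down of 96 (27.1%, against 13.3% over all genes). Epas1, which encodes a hypoxia factor and partner of ARNT, was higher in HFD in endothelial-like cells (332 and 676 CPM, ratio 2.03, 1.89–2.19) and lower in Wt1+ keratin-low stromal cells (20.6 and 5.14 CPM, ratio 0.249, 0.208–0.297). Endothelial-like cells also had higher Clock (1.61), Arntl (1.57), Ncoa1 (2.03) and Ncoa3 (1.62), and B cell-like cells higher Arntl (1.90). Arnt and Arntl were therefore both higher in these types. Npas3 and Sim2 were lower and Npas2 higher in Wt1+ keratin-low stromal cells, at levels of at most 5.63 CPM.

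Of the AHR target genes, 13 pairs were up and 6 down of 67 (28.4%, against 13.3% over all genes). Cyp1a1 was at 592 and 681 CPM in endothelial-like cells, against 1.44 and 1.06 CPM in plasma cell-like cells. In Wt1+ keratin-low stromal cells Cyp1a1 (ratio 2.23), Nqo1 (2.98) and Aldh3a1 (2.59) were higher in HFD beside an Ahr ratio of 0.970 and the shift in Krt19, Upk3b and Pdgfra given above, whose part was not tested. Ahrr was higher in mesothelial-like cells (1.56) and cycling Wt1+ keratin-low stromal cells (1.61), and lower in macrophage-like (0.559) and fibroblastic progenitor-like cells (0.560), the last of which also had lower Ahr.

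Immediate early genes, which tissue dissociation can raise, had 17 pairs up and 9 down of 131 (19.8%, against 13.3% over all genes). In endothelial-like cells 7 of 12 were higher in HFD, among them Egr1 (2.09) and Nr4a1 (2.60). In plasma cell-like cells Atf3 (0.329), Ier3 (0.587) and Junb (0.613) were lower and none was higher, and without immunoglobulin genes Junb was at 0.695, short of 1.5-fold. The part of handling in the heat shock and chaperone values was not tested.

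The genes whose pattern over the 11 types was most like that of each member were found by the mean of the Pearson correlations of log2(CPM + 1) in LFD and HFD, over 7977 genes. Types share libraries and differ in depth, so these values are descriptions. Ahr was most like Zfp207 (0.943), Anp32a (0.932) and Cdc40 (0.931), and Arnt most like Nisch (0.931), Tsc2 (0.919) and Pnpla8 (0.919). Hsp90aa1 was most like Hspd1 (0.961), Psma3 (0.955) and Hnrnpab (0.944), and Hsp90ab1 most like Pfdn1 (0.960), Ndufv2 (0.944) and Polr1c (0.937). Ptges3 was most like Eif2b1 (0.897) and Mtap (0.885), and Arnt2, at its low counts, most like Cd164 (0.721), Panx1 (0.718) and Adamts10 (0.690). Among the members, Hsp90aa1 and Hsp90ab1 had a mean correlation of 0.815 and Ptges3 and Hsp90aa1 of 0.799. For Ahr it was 0.720 with Hsp90ab1, the member it was most like, and 0.408 with Arnt.

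Within a cell type, cells with an Ahr UMI could be compared with cells without after thinning. In LFD Wt1+ keratin-low stromal cells, 5.88% (2.72–10.9%) of the 153 cells with an Ahr UMI and 6.25% (5.47–7.11%) of the 3439 cells without had an Arnt UMI. In endothelial-like cells Cyp1a1 was found in 64.5% (45.4–80.8%) of 31 LFD cells with an Ahr UMI against 49.9% (45.1–54.6%) of 443 without, and in 52.0% of 25 HFD cells against 54.0% of 409. In LFD mesothelial-like cells Cyp1a1 was found in 5.36% (1.12–14.9%) of 56 cells with an Ahr UMI against 1.13% (0.603–1.93%) of 1150 without. In HFD it was 1.79% of 56 against 2.99% of 1138. The intervals overlapped in each case, and at a single UMI per cell a difference was not detectable.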

How the data were processed

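The authors deposited matrices of UMI counts, unscaled whole numbers for each gene in each barcode, made with Cell Ranger 4.0.0 on mm10 per the submitters' processing notes, which also name STAR, bcl2fastq 2.17.1.14 and Seurat 4.1.0. Cells with 500 to 40000 UMIs, at least 100 genes and under 12.5% mitochondrial UMIs were kept, and Scrublet (scanpy 1.11.5, Python 3.11.15) scores were used to remove 0.8% per 1000 barcodes as doublets. Anchor integration of the libraries (Seurat 5.3.0 in R 4.3.3) used 1987 of 2000 variable genes, the member and listed genes left out, and cells were clustered on 30 components at resolution 0.3. Clusters took a type's name from a marker list when at least 3 markers and 50% of the list were in 10% of cells and above 2 times the median cluster. A marker of the list also had to be among the cluster's 10 leading genes, and the list with most such markers gave the name. The stromal name went to clusters without such a marker that met 50% of both the mesothelial and the adipocyte progenitor list. This rule was settled after the clusters had been seen, and a -like name rests on it alone. Counts were summed by type and library with numpy 2.4.6, scipy 1.17.1 and pandas 2.3.3. Intervals came from exact Poisson and binomial methods and were tested on simulated data. The members and lists were chosen with earlier results of these data known. Named genes are all members, listed genes past 1.5-fold or highest in their list (for some lists examples, with counts for the rest) and the 3 genes most like each member. Some genes that this rule names are not reported here. Alternatives were no doublet removal, a stricter cell filter, assignment of each cell by its own markers, resolution 0.6, mean per-cell CPM, median-ratio scaling, other thresholds on counts, cells and depth, and subtraction of free RNA. No eYFP or Cre feature was counted, and empty droplets were not analysed here.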

Additional observations from a re-analysis of the deposited data

Results flagged for a closer look

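The diet ratios of the 3 chaperones went in opposite directions in Wt1+ keratin-low stromal and plasma cell-like cells, with counting intervals on either side of 1. For Hsp90aa1 the HFD to LFD ratio was 1.08 in the stromal and 0.479 in the plasma cell-like cells, 2.26 times apart. For Ptges3 the ratios were 1.16 and 0.604, 1.92 times apart, and for Hsp90ab1 1.19 and 0.634, 1.88 times apart. With 1 library per diet, the difference between the cell types was not tested. The stromal ratio of Hsp90aa1 was 0.913 under the stricter cell filter, and immunoglobulin genes took 34.4% and 42.1% of the UMIs of plasma cell-like cells. Without immunoglobulin genes the plasma cell-like ratios were 0.543 (Hsp90aa1), 0.684 (Ptges3) and 0.718 (Hsp90ab1), which narrows the gaps. In the stromal cluster the mesothelial gene Krt19 had 20.2 and 68.1 CPM, and its part in the stromal ratios was not tested.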

How the results depend on the processing

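Of 12 member and type pairs past 1.5-fold, 12 were past it at resolution 0.6 and with genes of at least 1 count. The number was 6 of 55 with mean per-cell CPM, 9 of 55 with median-ratio scaling, 7 of 51 without doublet removal, 3 of 25 under the stricter cell filter and 5 of 30 with assignment of each cell by its own markers. Settings chosen after seeing the data gave 10 of 55 without immunoglobulin genes and 6 of 36 in cells with none of the cycling genes. By type, the count became 1 in fibroblastic progenitor-like cells with median-ratio scaling, without the top 1% of cells and without doublet removal, and 0 in endothelial-like cells with mean per-cell CPM, without doublet removal and in cells with none of the cycling genes. In B cell-like cells it became 1 with mean per-cell CPM, without the top 1% of cells and with assignment by own markers. In plasma cell-like cells it became 1 with median-ratio scaling, without immunoglobulin genes and with assignment by own markers. In T/NK cell-like cells it became 0 with mean per-cell CPM and without the top 1% of cells, and in ILC2-like cells 0 with mean per-cell CPM and 1 without doublet removal. Members spanning at least 4-fold numbered 2 in LFD with mean per-cell CPM and in cells with none of the cycling genes, and 1 in HFD without immunoglobulin genes, without doublet removal and with assignment by own markers. No value was reversed while past the threshold. Other than where cells or genes were left out, the cause was not tested. Without doublet removal no T/NK cell-like cluster formed, and under the stricter filter 5 types had enough cells. The boundary between Wt1+ keratin-low stromal and mesothelial-like cells moves with small changes in the cells clustered. Depth limits Ahr, Arnt and above all Arnt2. No paired analysis was possible because each diet has 1 library.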
